A study of Mus musculus with 6 samples.

Results

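The 6 genes described here, Bdkrb2, Alox15, Sall3, Myo7b, Lrrn1 and Gm15446, are genes with few reads in wild-type mouse lenses that were picked by name because their counts were far lower in lenses lacking Cd24a. They are 6 of 55416 genes in the count table and 6 of the 11474 that had enough reads to be tested. The choice used the counts of these same 6 libraries, so their differences between the groups are given as a description, with no test. Each library held whole lens from mice, 2 lenses per sample, with 3 samples from a germline knockout of Cd24a (strain label C57BL/6) and 3 from wild type (strain label C57BL/har). No treatment is labelled. The sample labels give an age of 8 weeks and the series text 7 weeks. No label gives the allele or the sex. Strain and genotype cannot be told apart in this design.

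CD24, the product of Cd24a, is a small heavily glycosylated protein anchored to the outer cell surface. The 6 genes belong to unrelated families. They are a bradykinin receptor, a lipoxygenase, a transcription factor, a motor protein, a membrane protein with leucine-rich repeats and a predicted gene. Whether any of them share a pathway was not tested. Lens RNA is dominated by crystallins, so a gene of low abundance is carried by few reads, and the number of reads limits how well a ratio is known.

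Cd24a itself followed every label, with 17514 to 20656 counts in wild type and 45 to 71 in the knockout. The libraries held 5384542 to 7302951 gene counts. Of 14 lens markers 13 were tested, of which 3 were lower and none higher. The remaining gene, Lim2, had 0 counts in every library. As Lim2 is a lens marker, 0 counts here may not mean that a gene is not expressed, and the reason was not tested. Of the 11474 tested genes, 861 were called between the genotypes (7.5%, edgeR quasi-likelihood test, adjusted p at most 0.05), 347 higher (3.02%) and 514 lower (4.48%) in the knockout. Scaling by library size alone called 1344, with 1008 higher and 336 lower.

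The whole set rested on 581 reads of 20384380 in wild type and 72 reads of 16781318 in the knockout. The wild-type libraries held 225, 172 and 184 reads of the 6 genes. The knockout libraries held 24, 34 and 14. Every knockout library was thus below every wild-type library in the summed reads. Of the 18 values in the knockout (6 genes in 3 libraries), 14 were at 5 counts or fewer and 4 were at 0, whereas the lowest of the 18 wild-type values was 14. 1 read was worth 0.142 to 0.162 CPM (read counts scaled to a common library size with TMM factors) in wild type and 0.157 to 0.184 CPM in the knockout.

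**Figure D1:**
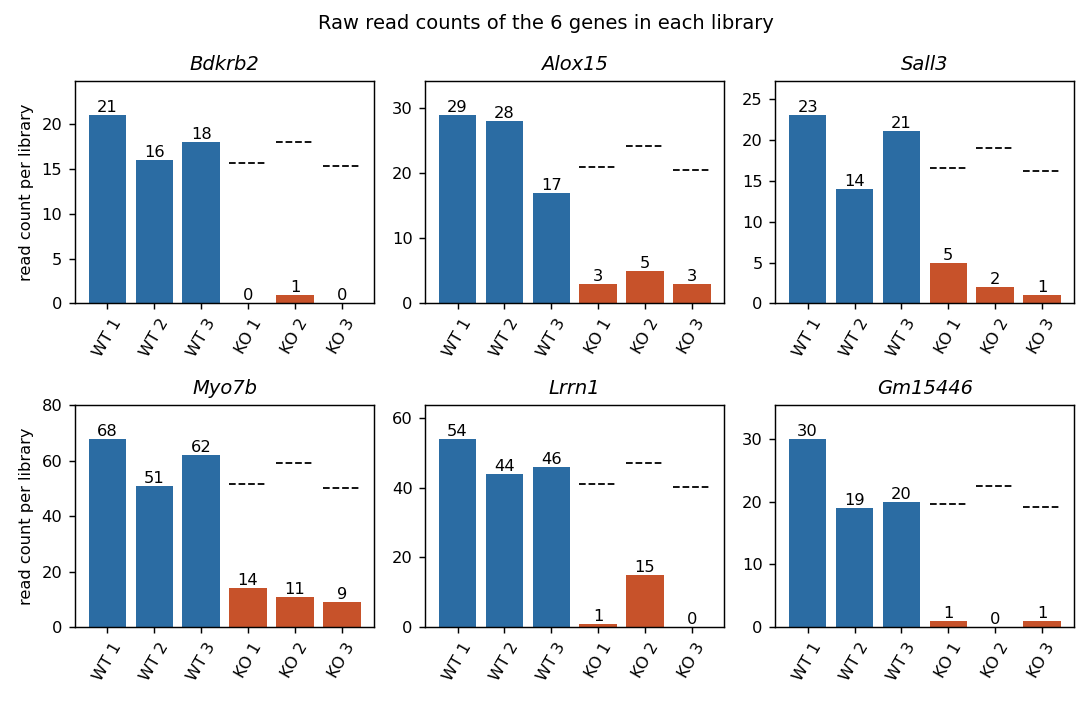
Raw read counts (vertical axis, starting at 0) of the 6 genes in the 3 wild-type (blue) and 3 knockout (orange) libraries, with the count above each bar. The dashed lines mark the count that each knockout library would hold at the wild-type level, 48.9 in all for Bdkrb2, against 1 observed.

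The fall was not equal among the 6. Bdkrb2 and Gm15446 were close to absent in every knockout library, and Lrrn1 was close to absent in 2 of 3. Alox15, Sall3 and Myo7b kept 15.5% to 21.1% of the wild-type level, so the word lost does not describe them. Between the knockout and wild-type libraries no values overlapped for any of the 6, against 24.4% of all tested genes in either direction and 12.4% in the lower direction. The choice of genes used this contrast, so nothing is read from that difference.

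Promoter windows are shown for the 3 genes with the lowest remaining levels, Bdkrb2, Gm15446 and Lrrn1. They come from RefSeq on build GRCm38.p6 and run from 250 bases before to 50 bases after the start. Capitals mark matches on either strand to TATAAA (the TATA box), CCAAT (the box of that name), GGGCGG (a GC box), TGACGTCA (the cyclic AMP response element) or CACGTG (an E-box).
Bdkrb2 (plus strand, chr12:105562922-105563221): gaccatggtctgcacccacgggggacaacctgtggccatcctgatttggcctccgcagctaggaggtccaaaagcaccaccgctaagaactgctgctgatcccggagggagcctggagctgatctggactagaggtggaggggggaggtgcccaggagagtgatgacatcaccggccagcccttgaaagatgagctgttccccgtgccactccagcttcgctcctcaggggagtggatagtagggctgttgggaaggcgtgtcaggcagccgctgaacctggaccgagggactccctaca
Lrrn1 (plus strand, chr6:107529476-107529775): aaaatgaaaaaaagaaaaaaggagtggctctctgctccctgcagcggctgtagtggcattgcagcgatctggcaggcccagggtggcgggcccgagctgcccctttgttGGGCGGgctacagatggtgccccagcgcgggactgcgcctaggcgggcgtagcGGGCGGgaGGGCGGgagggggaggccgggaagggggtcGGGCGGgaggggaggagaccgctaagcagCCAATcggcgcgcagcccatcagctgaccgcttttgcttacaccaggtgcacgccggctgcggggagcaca
Gm15446 (plus strand, chr5:109933313-109933612): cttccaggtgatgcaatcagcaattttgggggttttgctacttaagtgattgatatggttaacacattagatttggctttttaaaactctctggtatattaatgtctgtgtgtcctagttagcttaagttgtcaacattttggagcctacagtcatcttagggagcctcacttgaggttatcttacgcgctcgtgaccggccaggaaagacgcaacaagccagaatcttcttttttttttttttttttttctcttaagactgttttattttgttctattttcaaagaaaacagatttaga
The windows differ in base composition, with 61.7% G and C for Bdkrb2, 67.3% for Lrrn1 and 36.3% for Gm15446, where the median of all 32851 windows was 52.7%. The Lrrn1 window held 24 CG steps against a median of 7 over all windows, Bdkrb2 10 and Gm15446 5. Lrrn1 held 4 matches to GGGCGG, a motif found in 35.7% of all windows, and 1 to CCAAT, found in 37.4%. No match to any of the 5 motifs was found in the windows of Bdkrb2 or Gm15446. The TATA box was found in 13.6% of all windows, the cyclic AMP response element in 1.79% and the E-box in 7.15%, and none of them in these 3. These matches are letters in a window and no motif was shared by the 3.

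Bdkrb2 (ENSMUSG00000021070) encodes the bradykinin B2 receptor, a G protein-coupled receptor that responds to kinin peptides and signals mainly through Gq. It had 21, 16 and 18 counts in wild type and 0, 1 and 0 in the knockout, which is 2.81 ± 0.25 and 0.052 ± 0.090 CPM (SD, n = 3 each). All the knockout evidence was 1 read, where 48.9 reads would have been counted at the wild-type level. The knockout thus held 2.04% of the wild-type level, with an exact 95% interval of 0.0508% to 11.9% that covers counting error only. The fitted log2 fold change was -5.19 (SE 0.71). That fitted value depended on the prior count, the small number added before the ratio is taken, and it was -2.06 with a prior count of 5. Without knockout replicate 2, which held the only read, it was -7.11.

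Few other kinin genes were covered. Bdkrb1, the inducible B1 receptor, had 0 counts in every library, as did Kng1, a kininogen, and Klk1, a tissue kallikrein. Of 18 listed kinin genes 6 were tested, 1 was lower and none higher by the edgeR test (median log2 0.04, against 0.004 over all tested genes). The lower gene was Mme, neprilysin, a peptidase that degrades bradykinin, with 746, 735 and 667 counts in wild type and 476, 561 and 454 in the knockout. It fell by 0.36 on the log2 scale (SE 0.06, edgeR adjusted p = 9.34e-04), with mean levels of 110 ± 5.24 and 85.7 ± 2.19 CPM, and its groups did not overlap. Ace, the angiotensin-converting enzyme, which also degrades bradykinin, was at log2 0.13 (SE 0.11) and was not called. Of 14 tested genes of the Gq and calcium branch downstream of kinin receptors, none was called by the edgeR quasi-likelihood test, DESeq2, limma-voom or the edgeR exact test, and 3 had an unadjusted p of at most 0.05 (median log2 -0.13). Gnaq, the Gq alpha subunit, had levels of 39.4 ± 0.55 (wild type) and 42.2 ± 1.56 CPM (knockout).

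Gm15446 (ENSMUSG00000090015) is a predicted gene, annotated as protein-coding in GENCODE M21 and as a long non-coding RNA in RefSeq. The RefSeq start shown above lies inside the longer GENCODE gene. The gene had 30, 19 and 20 counts in wild type and 1, 0 and 1 in the knockout, or 3.50 ± 0.68 and 0.121 ± 0.105 CPM (SD, n = 3 each). The knockout reads numbered 2 in all, against 61.4 at the wild-type level. This left 3.26% of the wild-type level (exact 95% interval 0.387% to 12.2%). The fitted log2 fold change was -4.71 (SE 0.61), and -2.22 with a prior count of 5. Its exact interval overlapped that of Bdkrb2 almost wholly, so their order is not resolved by these reads. In GENCODE M21 its gene body overlaps Gm26808, a long non-coding RNA on the opposite strand. Gm26808 has no entry under its identifier in the count table, so it has no value here. The labels' protocols describe stranded libraries. Whether reads were counted by strand is not stated in the labels or files, so reads of the pair may not be separable. Zfp932 and Zfp605, zinc-finger genes, are among its neighbours, and many such proteins act through KRAB corepressors. Of 10 tested corepressor genes, Atf7ip, a partner of the histone methyltransferase SETDB1, was lower (log2 -0.29, SE 0.08, edgeR adjusted p = 0.021) and none was higher. The call of Atf7ip was lost in 6 of 15 alternatives (adjusted p = 0.059 to 0.13), which were library size alone, DESeq2 and leaving out replicate 1 or 2 of either genotype.

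Lrrn1 (ENSMUSG00000034648) encodes a membrane protein with leucine-rich repeats known from neural tissue. It had 54, 44 and 46 counts in wild type, or 7.36 ± 0.38 CPM (SD, n = 3). The knockout libraries held 1, 15 and 0 counts, or 0.84 ± 1.31 CPM (SD, n = 3). Knockout replicate 2 therefore carried 15 of 16 knockout reads (93.8%), and the spread between knockout libraries exceeded their mean. Over all 3 knockout libraries the level was 12.5% of wild type (exact 95% interval 6.95% to 21.0%). That interval pools the libraries and leaves out the spread between them. Without replicate 2 it was 1.23% (0.0310% to 6.99%), from 1 read where 81.0 would have been counted. The fitted log2 fold change moved from -2.99 (SE 0.49) to -6.05 without that library.

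Markers of the ciliary body and iris moved with that library. Their summed level was 197 CPM in knockout replicate 2, against 109 CPM or less in the others, and 131 to 173 CPM in wild type. All 12 of these markers had reads, 7 were tested and none was called by the edgeR quasi-likelihood test, DESeq2, limma-voom or the exact test, and 1 had an unadjusted p of 0.05 or less. Fbn1, fibrillin 1, the most abundant of the list, had 178, 544 and 113 counts in the knockout and 553, 307 and 472 in wild type. Glul, glutamine synthetase, from the list of inner retina neurons and Muller glia, had 187, 376 and 132 in the knockout. That list summed to 80.0, 95.9 and 59.2 CPM in the knockout and 89.3 to 110 CPM in wild type, with Lhx1 at 0. Leukocyte markers summed to 11.1 CPM in knockout replicate 2 and to 5.52 CPM or less in the others. Wild-type replicate 2 had the lowest ciliary sum of its group, with Lrrn1 at 6.95 CPM against 7.69 and 7.44 CPM in replicates 1 and 3. Knockout replicate 2 had the highest ciliary sum of all libraries, with Lrrn1 at 2.35 CPM. The part of these markers in the Lrrn1 value was not tested. In bulk tissue, fewer cells of a type and less RNA per cell cannot be told apart.

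The close relatives of Lrrn1 were scarce. Lrrn2 had 13 and 12 counts in all in wild type and knockout, Lrrn3 19 and 7, and Lrrn4 0 in both, so none of these was tested. Of 37 listed leucine-rich repeat membrane proteins 14 were tested, 1 was lower and none higher (median log2 0.01). The lower gene was Lrig1, a negative regulator of ErbB receptors, with 410, 370 and 361 counts in wild type and 260, 265 and 215 in the knockout. Its level fell by 0.45 on the log2 scale (SE 0.08, edgeR adjusted p = 9.72e-04), and its groups did not overlap. Lrfn4, a synaptic adhesion protein, was at log2 0.78 (SE 0.25) and was not called, with an adjusted p of 0.068 in the edgeR fit.

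Alox15 (ENSMUSG00000018924) encodes the leukocyte-type lipoxygenase, called 12/15-lipoxygenase in the mouse, which adds oxygen to polyunsaturated fatty acids. It had 29, 28 and 17 counts in wild type and 3, 5 and 3 in the knockout, or 3.77 ± 0.89 and 0.62 ± 0.14 CPM. Wild-type replicate 3 was the lowest of its group and still above every knockout library. The 11 knockout reads correspond to 65.8 at the wild-type level, or 16.7% (exact 95% interval 8.00% to 31.7%). The fitted log2 fold change was -2.54 (SE 0.42) and stayed between -2.74 and -2.42 with any 1 library left out.

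Other lipoxygenases had almost no reads. Alox12, the platelet-type enzyme, had 19 counts in wild type and 9 in the knockout. Alox5, the enzyme of leukotriene synthesis, had 0 and 1. Alox12b and Alox12e had 0 counts in every library. Of 23 listed lipoxygenase and eicosanoid genes 8 were tested, 1 was lower and none higher (median log2 0.02). Ptgds, the lipocalin-type prostaglandin D synthase, had 891, 792 and 822 counts in wild type and 414, 582 and 343 in the knockout. Its groups did not overlap, at 128 ± 4.13 and 76.2 ± 14.1 CPM, and it fell by 0.74 on the log2 scale (SE 0.09, edgeR adjusted p = 1.12e-05). Gpx4, the peroxidase that reduces lipid hydroperoxides, the products of lipoxygenases, was at log2 0.18 (SE 0.08) and was not called.

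Alox15 is known from macrophages, eosinophils and epithelia, and leukocyte markers were themselves near the limit of detection. They summed to 7.58 to 13.4 CPM across the wild-type libraries and to at most 11.1 CPM across the knockout ones, which overlap. Of 15 markers 2 were tested, and neither was called by any of those 4 tests, though 1 had an unadjusted p of 0.05 or less. Prg2, a protein of eosinophil granules, had 0 counts in every library. Lyz2, lysozyme of macrophages and granulocytes, had 17, 14 and 25 counts in wild type and 3, 10 and 9 in the knockout (log2 -1.17, SE 0.43). The other tested marker, Csf1r, had 14, 10 and 13 counts in wild type and 6, 16 and 11 in the knockout (log2 -0.002, SE 0.40). Ptprc, the pan-leukocyte antigen CD45, had 2, 3 and 8 counts in wild type and 0, 9 and 1 in the knockout. The part of these cells in the Alox15 value was not tested.

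Sall3 (ENSMUSG00000024565) encodes a zinc-finger transcription factor of the spalt family. It had 23, 14 and 21 counts in wild type and 5, 2 and 1 in the knockout, or 2.96 ± 0.65 and 0.47 ± 0.38 CPM. The groups did not overlap, but 8 knockout reads carried the value, with 5 of them (62.5%) in replicate 1. At the wild-type level 51.6 reads would have been counted, which leaves 15.5% (exact 95% interval 6.39% to 32.6%). Without knockout replicate 1 the share was 8.55% (1.71% to 26.3%), and the fitted log2 fold change went from -2.63 (SE 0.50) to -3.45.

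Of its relatives, Sall1 and Sall2 had enough reads to be tested. Sall1 had 574, 550 and 501 counts in wild type and 432, 467 and 415 in the knockout, at log2 -0.14 (SE 0.07). Sall2 had 82, 56 and 53 counts and 45, 48 and 35, at log2 -0.40 (SE 0.19). Neither was called, and Sall4 had 0 counts in every library. The NuRD complex, the chromatin remodelling and deacetylase complex that spalt factors recruit, was well covered. Of 15 tested genes of the spalt and NuRD list 2 were lower and 1 higher (median log2 -0.05). Gatad2a, a zinc-finger subunit, had 1794, 1749 and 1565 counts in wild type and 943, 1046 and 868 in the knockout, and fell by 0.67 on the log2 scale (SE 0.06, edgeR adjusted p = 1.50e-07). Chd3, a helicase subunit, fell by 0.51 on the log2 scale (SE 0.11, edgeR adjusted p = 0.0034). Mbd2, a methyl-CpG binding subunit, was called higher at log2 0.23 (edgeR adjusted p = 0.043), and that call was lost in 9 of 15 alternatives (adjusted p = 0.056 to 0.26): no filter on low counts, DESeq2, the edgeR exact test, the replicate block and leaving out knockout replicate 1 or 3 or any wild-type library.

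Myo7b (ENSMUSG00000024388) encodes an unconventional myosin known from the microvilli of intestinal and kidney brush borders. It had the most reads of the 6, with 68, 51 and 62 counts in wild type and 14, 11 and 9 in the knockout. The levels were 9.25 ± 1.06 and 1.97 ± 0.48 CPM. The knockout libraries lay close together and far below the lowest wild-type library. The 34 knockout reads correspond to 161 at the wild-type level, or 21.1% (exact 95% interval 14.2% to 30.6%), the narrowest interval of the 6 in relative terms. The fitted log2 fold change was -2.23 (SE 0.26), between -2.44 and -2.13 with any 1 library left out and -1.86 with a prior count of 5.

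Coverage of the brush border list was uneven. Ezr, ezrin, which links actin to the membrane, had 2593, 2323 and 2113 counts in wild type and 2169, 2428 and 2188 in the knockout, and Espn, an actin bundler, had 368, 343 and 271 and 264, 289 and 223. Their log2 fold changes were 0.12 (SE 0.06) and -0.17 (SE 0.09), and neither was called. Cdhr2, Cdhr5 and Anks4b, components of the adhesion complex between microvilli, had 0 counts in every library. Ush1c, the scaffold harmonin, had 36, 21 and 23 counts in wild type and 27, 23 and 13 in the knockout, which overlap (log2 -0.17, SE 0.31). Of 5 tested genes of this list none was called by the edgeR quasi-likelihood test, DESeq2, limma-voom or the exact test, and 1 had an unadjusted p of at most 0.05. Myo7a, the closest paralog, had 234, 236 and 184 counts and 155, 196 and 162, at log2 -0.18 (SE 0.10), and was not called. Of 16 tested unconventional myosins 2 were lower and 1 higher (median log2 -0.10). Myo18b, known from striated muscle, had 451, 405 and 311 counts in wild type and 199, 199 and 221 in the knockout, and fell by 0.74 on the log2 scale (SE 0.11, edgeR adjusted p = 8.26e-05). Myo5a, a vesicle motor, was called lower at log2 -0.38 (edgeR adjusted p = 0.027), and the call was lost in 6 of 15 alternatives (adjusted p = 0.050 to 0.16): library size alone, DESeq2 and leaving out wild-type replicate 3 or any knockout library. Myo5b, a motor of recycling endosomes, was called higher at log2 0.28 (edgeR adjusted p = 0.0044), a call lost without wild-type replicate 1 (adjusted p = 0.053).

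Over all 8 lists of related genes, 88 genes were tested, 8 were lower and 2 higher. That is 11.4% called, against 7.5% of all tested genes, and their median log2 fold change was -0.05. The 88 fold changes ran from -0.97 to 0.78. With library size alone 17 of the 88 were called.

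**Figure D2:**
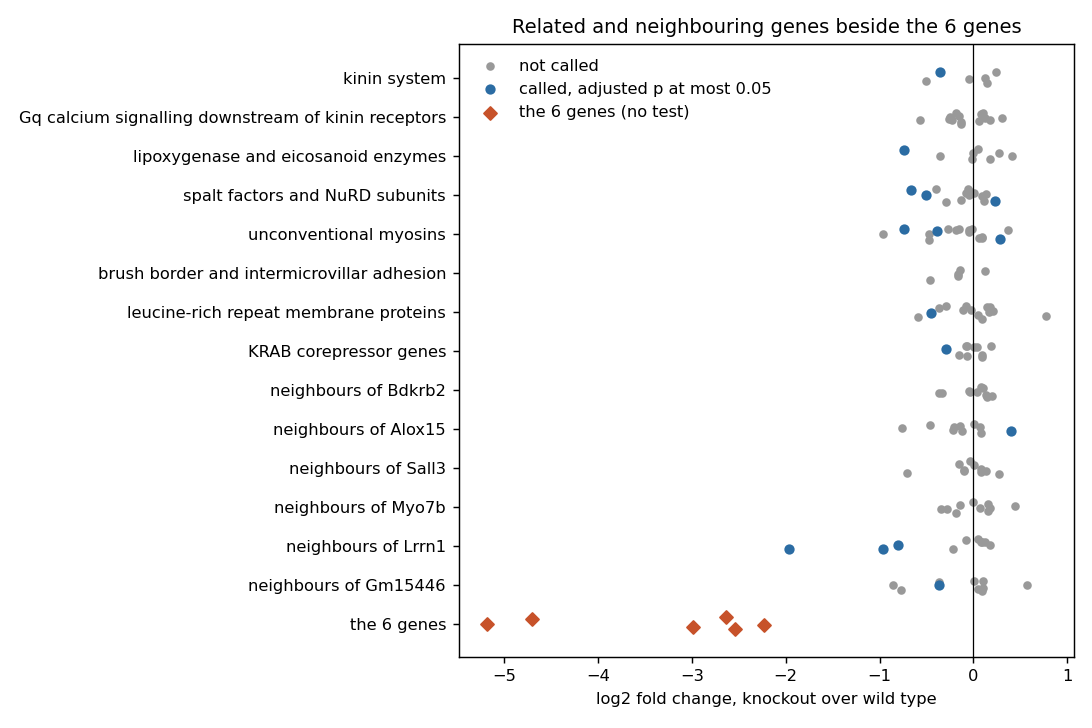
Log2 fold change of knockout over wild type (horizontal axis) for each tested gene of the 8 related lists and for the 5 nearest tested genes on each side of each of the 6 genes, 1 point per gene, blue where called. The 6 genes lie between -5.19 and -2.23, while related genes lie between -0.97 and 0.78 and the lowest neighbour, Pdzrn3, is at -1.96.

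Gene position was not used to choose the 6. They lie on chromosomes 12, 5, 6, 11 and 18, with Sall3 and Myo7b on 18, and none is on chromosome 10, which carries Cd24a. By gene order in GENCODE M21, 60 tested genes flank them, 5 on each side. Of these 1 was higher and 4 lower (8.33%, against 7.5% of all tested genes), and their median log2 fold change was 0.005. The neighbours of Bdkrb2, Sall3 and Myo7b gave no call by the edgeR quasi-likelihood test, DESeq2, limma-voom or the exact test (4 of 30 had an unadjusted p of at most 0.05), and their fold changes ran from -0.71 to 0.44.

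3 of the 5 calls were among the 10 neighbours of Lrrn1, all lower. They were 4 or 5 tested genes away by gene order, and distances in bases are not given. Ppp4r2, a regulatory subunit of protein phosphatase 4, had 930, 859 and 795 counts in wild type and 364, 436 and 374 in the knockout. Its groups lay far apart, at 132 ± 3.52 and 67.5 ± 1.79 CPM, and it fell by 0.97 on the log2 scale (SE 0.06, edgeR adjusted p = 1.78e-09). Pdzrn3, a ubiquitin ligase with PDZ domains, had 40, 39 and 40 counts and 8, 12 and 7, and fell by 1.96 on the log2 scale (SE 0.30, edgeR adjusted p = 1.45e-04). Bhlhe40, a transcriptional repressor, had 139, 137 and 118 counts and 63, 77 and 60, and fell by 0.81 on the log2 scale (SE 0.13, edgeR adjusted p = 2.49e-04). These 3 calls held in all 15 alternatives. The genes directly beside Lrrn1, Crbn and Sumf1, were at log2 0.04 and 0.09 and were not called. Pdzrn3 had its highest knockout level in replicate 2, at 1.88 CPM against 1.44 and 1.29 CPM. Its SD between knockout libraries was 0.31 CPM, against 1.31 CPM for Lrrn1.

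The other calls were single. Gabarap, an autophagy protein and the neighbour 5 tested genes from Alox15, had 414, 353 and 407 counts in wild type and 425, 510 and 447 in the knockout, and rose by 0.40 on the log2 scale (SE 0.08, edgeR adjusted p = 0.0014). Fgfrl1, a fibroblast growth factor receptor-like protein, is the neighbour 4 tested genes from Gm15446. It was called lower at log2 -0.37 (SE 0.09, edgeR adjusted p = 0.0086). The call was lost in 3 of 15 alternatives, without wild-type replicate 2 or knockout replicate 1 or 2 (edgeR adjusted p = 0.050 to 0.099). Zfp932, the nearest tested zinc-finger gene to Gm15446, had 44, 32 and 29 counts in wild type and 15, 31 and 9 in the knockout and was not called (log2 -0.77, SE 0.31). Further out on chromosome 12 lies a cluster of Serpina3 genes, which encode serine protease inhibitors, and Serpina3i, Serpina3h, Serpina3f and Serpina3e-ps were all called higher there. They had 0 counts in every wild-type library. In the knockout Serpina3i had 153, 202 and 150 counts, Serpina3h 344, 371 and 284, Serpina3f 55, 70 and 58, and Serpina3e-ps 52, 68 and 50. Between them and Bdkrb2 lie 6, 7, 8 and 9 tested genes in that order, beyond the 5 on each side counted as neighbours. The search was widened for Bdkrb2 alone, so their position has no comparison with the other genes of the 6. Serpina3n, with 5 between, had 9, 7 and 17 counts in wild type and 11, 10 and 11 in the knockout and was not called. The genes are closely related copies, so how reads were divided among them is uncertain.

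Per unit of length the 6 were also low. In the authors' deposited table the wild-type mean FPKM was 0.741 for Bdkrb2, 1.53 for Alox15, 0.385 for Sall3, 1.38 for Myo7b, 1.99 for Lrrn1 and 0.926 for Gm15446, against a median of 2.86 over 11474 listed genes. Lrrn1 thus had the highest level per length although Myo7b had more reads, and Sall3 the lowest, above 4.09% of listed genes. The authors' deposited signed folds were -36.4 for Bdkrb2, -26.1 for Gm15446, -8.34 for Lrrn1, -6.20 for Sall3, -5.82 for Alox15 and -4.69 for Myo7b. All 6 were in the authors' deposited list of 187 genes changed over 2-fold and none was in their shorter list of 82. The authors' deposited description asks of the shorter list a difference above 2 FPKM and a level above it in either group, and every one of the 6 was below 2 FPKM in wild type. Of the 139 lower genes in the authors' deposited 2-fold list, 61 were below 2 FPKM in both groups.

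Genes with as few reads were numerous, and falls of this size were rare among them. There were 3410 tested genes with a wild-type total between 55 and 181 counts, the range of the 6. Their median knockout level was 98.5% of wild type, with quartiles at 83.6% and 114%. In that range 92 genes (2.7%) were called lower and 355 (10.4%) had all knockout libraries below all wild-type ones. Of the 3410 genes 19 (0.557%) were below 25% of wild type, including all 6, and 7 (0.205%) were below 10%, including Bdkrb2 and Gm15446. The 6 were chosen for their fall and their totals set the range, so nothing is read from their place there. In the opposite direction, of 3415 genes with a knockout total in that range, 12 (0.351%) had a wild-type level below 25% of the knockout and 9 (0.264%) below 10%.

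**Figure D3:**
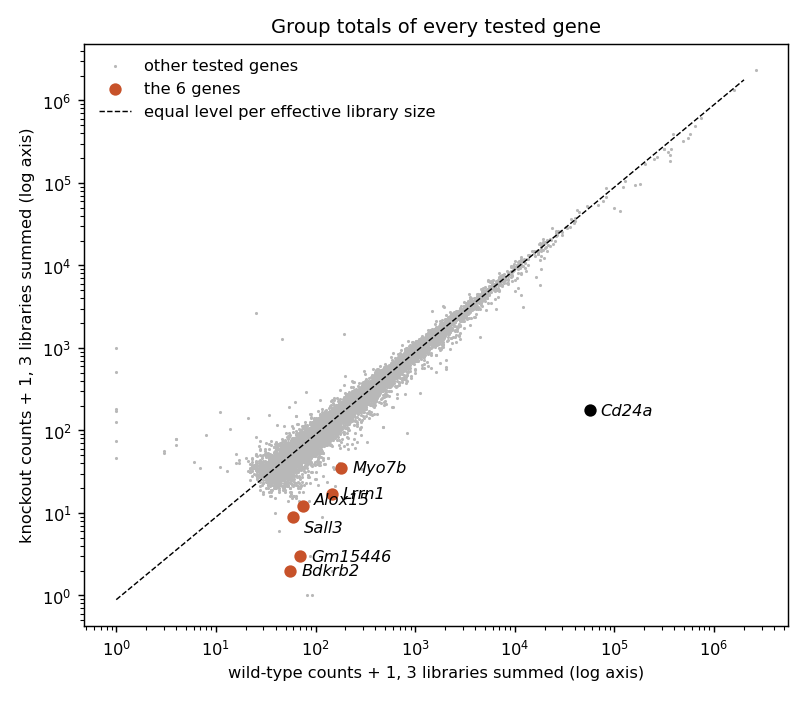
Counts summed over the 3 wild-type libraries (horizontal) and the 3 knockout libraries (vertical) for each tested gene, both plus 1 on log axes, with the 6 genes in orange and Cd24a in black. The 6 genes lie below the line of equal level, at wild-type totals of 55 to 181 and knockout totals of 1 to 34.

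The 6 do not exhaust the genes of this kind. Among genes called lower with a wild-type mean under 10 CPM, ordered by fitted log2 fold change, they took places 4, 6, 8, 11, 12 and 16. AA388235 and Gm4152, both on chromosome 17, took places 1 and 2 and had 0 counts in every knockout library. AA388235 had 40, 31 and 20 counts in wild type and Gm4152 had 28, 34 and 20. Gm28438, just before Bdkrb2 in that order, had 50, 49 and 46 counts in wild type and 1, 0 and 0 in the knockout. 1500004A13Rik, between Bdkrb2 and Gm15446, had 30, 37 and 21 counts and 0, 0 and 2. Emilin2, a matrix glycoprotein on chromosome 17 placed before Lrrn1, had 44, 39 and 31 counts and 0, 6 and 2. Most of its knockout reads were in replicate 2, as for Lrrn1. Just after Myo7b came Gm47283, with 99, 48 and 43 counts and 6, 9 and 21 (log2 -2.20, against -2.23 for Myo7b). Gm47283 is on chromosome Y, and the sex of the mice is not labelled.

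The genes whose profile over the 6 libraries was most like that of each of the 6 mostly kept more of their wild-type level. Likeness was the Pearson correlation of log2 CPM (prior count of 2) over the 6 libraries, which share the group difference. Eef1a2, a translation elongation factor, was most like Bdkrb2 (r = 0.998). It had 95, 80 and 83 counts in wild type and 22, 30 and 19 in the knockout. H2-K1, an MHC class I gene on chromosome 17, was most like Alox15 (r = 0.997), with 50, 51 and 28 counts and 6, 11 and 6. Zfp462, a zinc-finger gene, was most like Sall3 (r = 0.998), and Slc7a11, a cystine transporter, most like Myo7b (r = 0.998). Klhl13, an adaptor of a ubiquitin ligase, was most like Lrrn1 (r = 0.997), with 17, 15 and 16 counts and 4, 11 and 3. The low wild-type replicate 3 of H2-K1 and the high knockout replicate 2 of Klhl13 follow from choosing genes by likeness. Osbp2, an oxysterol binding protein, was most like Gm15446 (r = 1.00 after rounding). The second in likeness were Spon1, Gm6166, Pofut1, Snord87, Telo2 and Eif5 in the order of Bdkrb2, Alox15, Sall3, Myo7b, Lrrn1 and Gm15446. Between 266 and 466 genes passed r = 0.9 with each of the 6, so these nearest genes are drawn from many.

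Markers of the retinal pigment epithelium also had lower sums in the knockout. Their summed level was 56.1, 63.6 and 83.9 CPM in wild type and 41.2, 27.4 and 41.8 CPM in the knockout, which do not overlap. Of 8 tested markers 4, Rpe65, Rgr, Ttr and Oca2, were lower and none higher by the edgeR quasi-likelihood test, while DESeq2 called 2 and limma-voom 5. All 11 of these markers had reads. The most abundant, Ttr, a thyroxine and retinol carrier, fell by 1.12 on the log2 scale (SE 0.23, edgeR adjusted p = 0.0031). Photoreceptor markers summed to 184 to 477 CPM in wild type and 176 to 310 CPM in the knockout, which overlap. Of 10 tested 1, Gnat1, was lower, while DESeq2 and limma-voom called 0 and the edgeR exact test 4, and 6 had an unadjusted p of at most 0.05. Of 3 tested cornea markers 1, Aldh3a1, was lower (2 by DESeq2 and by limma-voom), and Krt12, the cornea keratin, had 0 counts. Of 4 tested vessel markers 1, Rgs5, was higher. Erythrocyte markers were the reverse, at 0 to 0.285 CPM in wild type and 6.66, 1.10 and 2.02 CPM in the knockout. Hbb-bs, a beta globin, had 0 counts in wild type and 23, 4 and 5 in the knockout. None of the 7 erythrocyte markers had enough reads to be tested. The part of these tissues in the values of the 6 genes was not tested.

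**Figure D4:**
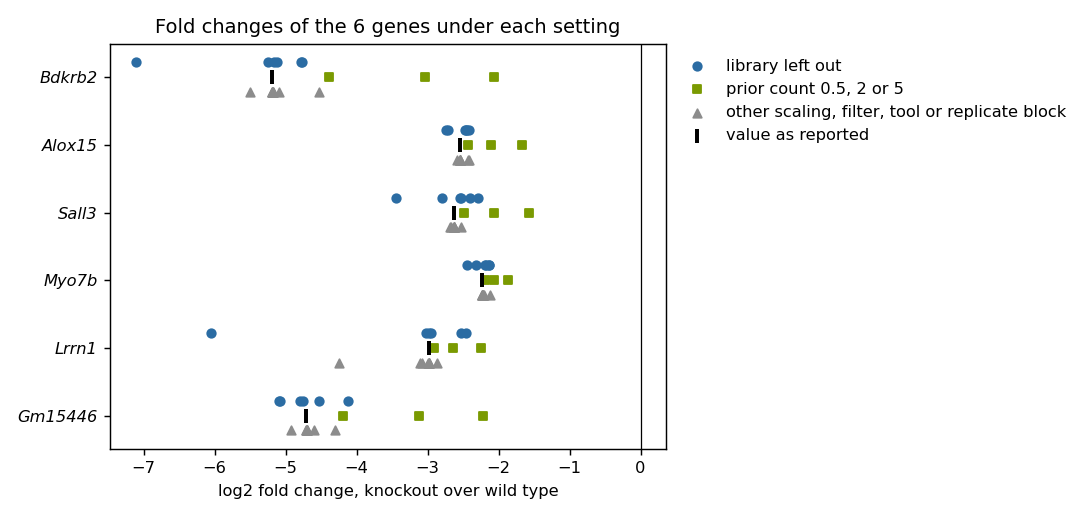
Fitted log2 fold change (horizontal axis) of each of the 6 genes as reported (black bar), with each library left out (blue), with prior counts of 0.5, 2 or 5 (green) and under the other settings (grey). All values lie below 0, and those of Bdkrb2 run from -7.11 to -2.06 while those of Myo7b run from -2.44 to -1.86.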

How the data were processed

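Whole-lens RNA was profiled in 6 mouse libraries, 3 per genotype, read on 4 lanes each. Raw counts of reads for Ensembl release 104 features were deposited, per the file headers, with an exon-union length in bp and a GC fraction per feature. The authors' deposited tables also give mean FPKM per group, a signed fold change (used as a score), and p-values and q-values, which were not used. HISAT2, HTSeq, edgeR and GRCm39 are named in the submitters' processing notes without versions or roles. The labels' protocols describe ribodepleted, stranded, single-end libraries.

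The filterByExpr filter was applied by genotype. All 6 members passed, and it kept at least 99.56% of each library's counts. After TMM scaling, a quasi-likelihood model was fitted in R 4.3.3 with edgeR 4.0.16 (limma 3.58.1 underneath), with a prior count of 0.125. Its p-values were two-sided and adjusted by Benjamini-Hochberg over 11474 genes, and calls needed 0.05 or less. SE is the fold change over the square root of F. Expected counts are wild-type totals scaled by effective library size. Ratio intervals are exact (Clopper-Pearson, conditional on the total, scipy 1.17.1, 95%). They pool the 3 libraries of a group, so they describe counting error alone and leave out the spread between libraries. No molecular identifiers are mentioned, so duplicate reads may make them too narrow. The series text calls the samples of a group biological replicates, and p-values measure the spread between them.

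The members and the 8 related and 9 marker lists were chosen with earlier results of these data known. Named genes were the members, Cd24a, up to 4 called genes per related list, called neighbours, up to 4 non-members near the members in order of fold change, the 2 genes most like each member, and the most abundant marker of lists; others, such as untested relatives and markers at 0, were named after their values were seen. Neighbours came from gene order in GENCODE M21 (GRCm38), matched by Ensembl identifier; it is another build than that of the counts, so positions of genes are not printed. Promoter sequences from RefSeq are printed for Bdkrb2, Lrrn1 and Gm15446. Alternatives were 3 other scalings, 2 other filters, 3 other tests (DESeq2 1.42.0, limma-voom and the exact test of edgeR), replicate number as a block, prior counts of 0.5, 2 and 5, and leaving out each library. The 15 alternatives given for named genes leave out the prior counts.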

Additional observations from a re-analysis of the deposited data

How the results depend on the processing

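All 108 fold changes of the 6 genes under 18 alternatives stayed below 0, and 23 moved by more than 1 SD between replicates, mostly in Bdkrb2 (8) and Gm15446 (7). The total of called genes was 861, and 1344 with library size alone, where the median over all tested genes went from 0.004 to 0.114 (log2). DESeq2 called 574. The total was 562 to 782 with 1 library left out, lowest without knockout replicate 1. Called related genes numbered 10, and 17 with library size alone; called neighbours numbered 5, and 4 or 5 in every alternative. With replicate number as a block, 781 genes were called, with 9 related genes and 5 neighbours. The labels do not say whether a replicate number pairs samples. The deviations of same-numbered libraries correlated at 0.054, -0.035 and 0.035, and those of other pairs at -0.085 to 0.045. With 3 libraries per group these values cannot decide whether a number marks a shared litter, day or batch. At 1 to 34 knockout reads per gene, depth limits each ratio, and for Bdkrb2 the interval reached 11.9% of the wild-type level.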
